A study of Ovis aries with 2 samples.

Results

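The 263 barcodes described here are T or NK lymphocytes of the native sheep carotid artery that held no transcript of IFNG, the gene of interferon gamma, and none of XCL1, the gene of the chemokine lymphotactin. They were chosen from the single-cell counts themselves. A native barcode entered if it held at least 500 UMIs (unique molecular identifiers, each standing for 1 captured RNA molecule) with at most 20% of them from 13 mitochondrial genes. Its UMIs of CD3D, CD3E, CD3G, CD2, LCK, CTSW and NKG7 had to sum to at least 2, and to at least 2 times each of the sums of 6 endothelial, 4 macrophage and 4 fibroblast markers. The last step kept barcodes with 0 UMIs of IFNG and XCL1. The members made up 2.37% of the 11108 native barcodes that passed the first limits (95% Clopper-Pearson interval 2.09 to 2.67%), 38.4% of the 685 native T or NK barcodes, and 263 of the 12600 barcodes deposited for both vessels.

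The study profiled single cells of 2 vessels explanted at week 12 from sheep of 1 to 2 years of age, with 1 10x library of about 10000 targeted cells for each vessel. The native artery is given as carotid by its source and as aorta by its title. The other vessel was H2R5-ATEV, an engineered vascular graft that held no cells when it was implanted and had been in place until the same week. Neither the number of animals nor a strain, sex or treatment is stated in the sources used here. Cells of both vessels were released by enzyme from the lumen side, filtered and treated to lyse red blood cells, so cells deep in the wall may be under-represented. Each vessel is 1 library, so no comparison below has a replicate check and none carries a p-value. Intervals are exact 95% intervals and cover counting error only.

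T lymphocytes carry the CD3 proteins beside the T cell receptor, and the kinases LCK and ZAP70 pass on its signal. CD4 marks helper cells and CD8 marks cells that mostly kill, while NK cells kill without a T cell receptor. Cells that rest between encounters with antigen keep the survival receptor IL7R, the transcription factors LEF1, TCF7 and BACH2, and the trafficking receptors CCR7 and S1PR1. Sheep and cattle also carry many gamma delta T cells, and a large class of these in ruminant blood lacks CD2, CD4 and CD8.

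The native library held 11371 barcodes with a median of 1366 UMIs, against 1229 graft barcodes with a median of 17050 UMIs. Of the 21890 genes, 6435 have no symbol in the files, and these took 24.9% of the members' UMIs. CD8B, TRDC of the gamma delta receptor, and several NK genes have no row under their symbol, so CD8 below means CD8A. The libraries shared 7 barcode sequences, of which 0 were members.

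The members held 1128568 UMIs in all, with 511 to 13064 per barcode and a median of 4457. The 422 native T or NK barcodes with IFNG or XCL1 had a median of 6263.5 UMIs, and the other 10423 native barcodes a median of 1296. The T or NK marker sum that chose the members ran from 2 to 50 with a median of 15. A sum of exactly 2 was held by 36 members, and a sum of at least 10 by 167. Just outside the limit lay 47 barcodes with a sum of 1 and a median of 786 UMIs. IL7R, which the rule did not use, stood at 467 CPM (the gene's summed UMIs scaled to counts per 1000000) in the members with a sum of 2 and at 98.8 CPM in those 47 barcodes. A further 318 barcodes had a sum of at least 2 but failed the comparison with other cell types, and 38 members met that comparison at exactly 2 times.

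The label names T or NK cells, and CD3 genes of T cells were found in nearly all members. The NK genes NCR1, KLRF1 and SH2D1B were rare, while KLRK1 was not. CD3E reached 1775 CPM in the members, against 1111 CPM in the T or NK barcodes with IFNG or XCL1 and 23.7 CPM in the other native barcodes. CD3G reached 702 CPM, against 460 and 8.65 CPM in the same order of groups. CD2 stood at 295, 204 and 20.8 CPM and LCK at 190, 213 and 4.87 CPM. These 4 genes were part of the rule and only describe it. The rule did not use THEMIS or IL7R. THEMIS, needed in T cell development, reached 427 CPM in the members, 250 CPM in the T or NK barcodes with IFNG or XCL1 and 5.12 CPM elsewhere. IL7R reached 719 CPM, against 325 and 17.9 CPM.

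A CD3 transcript was present in 245 members (93.2%), against 296 (70.1%) of the T or NK barcodes with IFNG or XCL1. The CD3 genes are 3 of the 7 whose sum admitted these barcodes, so this share describes the choice. A transcript of the NK receptor genes NCR1, KLRF1 or SH2D1B was present in 7 of 263 members, against 155 of 422. The rule itself held endothelial, macrophage and fibroblast markers low. The 11 endothelial genes, 6 of them in the rule, summed to 175 CPM in the members and 2555 CPM in the other native barcodes. All 5 endothelial genes outside the rule were past 2-fold lower, and KDR was at 0. The 4 neutrophil and 2 erythroid markers with a symbol had 0 UMIs. HBB and HBA1 have no row under their symbol. The 2 erythroid markers had only 3 UMIs in the other native barcodes, too few for a comparison. The 11 B and plasma cell genes summed to 228 CPM in 106 members, 652 CPM in the T or NK barcodes with IFNG or XCL1 and 160 CPM in the other native barcodes. Of the members' 257 UMIs, 173 were of BANK1 and 65 of CD79A, which was past 2-fold higher than in the other native barcodes, while PAX5 was at 0. The part of B cells in the results was not tested.

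Absence of IFNG and XCL1 depended on depth. Of native T or NK barcodes with 500 to 1000 UMIs, 42 of 66 (63.6%) held neither transcript, and of those with at least 5000 UMIs, 108 of 394 (27.4%, interval 23.1 to 32.1%). When the 398 barcodes that do hold IFNG or XCL1 and have at least 1000 UMIs were thinned at random to 1000 UMIs, 141 (35.4%, interval 30.7 to 40.3%) showed 0 of both. Thinned to 4000 UMIs, 25 of 340 (7.35%, interval 4.81 to 10.7%) did so. Another 82 native T or NK barcodes lay just outside the rule with 1 UMI of either gene. Cells whose IFNG or XCL1 transcripts were missed and cells without them cannot be told apart among the members.

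CD4 was the coreceptor that stood higher in the members, and CD8A the one that stood lower, than in the T or NK barcodes with IFNG or XCL1. CD4 had 65 UMIs, or 57.6 CPM, in the members, against 16.2 CPM in the T or NK barcodes with IFNG or XCL1 (3.55-fold, interval 2.40 to 5.29) and 0.901 CPM in the other native barcodes. CD8A had 82 UMIs, or 72.7 CPM, in the members, against 133.5 CPM (1.84-fold lower, interval 1.44 to 2.36) and 2.99 CPM. Both stood far above the level elsewhere in the artery.

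Counted by barcode, 40 members (15.2%) held CD4, 54 (20.5%) held CD8A, 0 held both and 169 held neither. In the T or NK barcodes with IFNG or XCL1, 25 held CD4 alone, 185 held CD8A alone, 1 held both and 211 held neither. Coreceptor transcripts are sparse, so a barcode with neither cannot be read as a cell without the proteins. At an equal 1000 UMIs per barcode, which 221 members reached and 42 did not, CD4 was found in 4.98% of members (interval 2.51 to 8.73%), against 1.76% of the T or NK barcodes with IFNG or XCL1 (0.710 to 3.59%). CD8A was found in 8.14% of members (4.90 to 12.6%) and in 15.1% (11.7 to 19.0%) of the comparison barcodes. Endothelial barcodes, used as a background for both genes, had 0.104% for CD4 and 0.261% for CD8A at the same depth. The parts of free RNA and of doublets in this background were not tested. Unthinned, these endothelial shares were 0.189% and 0.454%, at a median of 1925 UMIs.

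**Figure D1:**
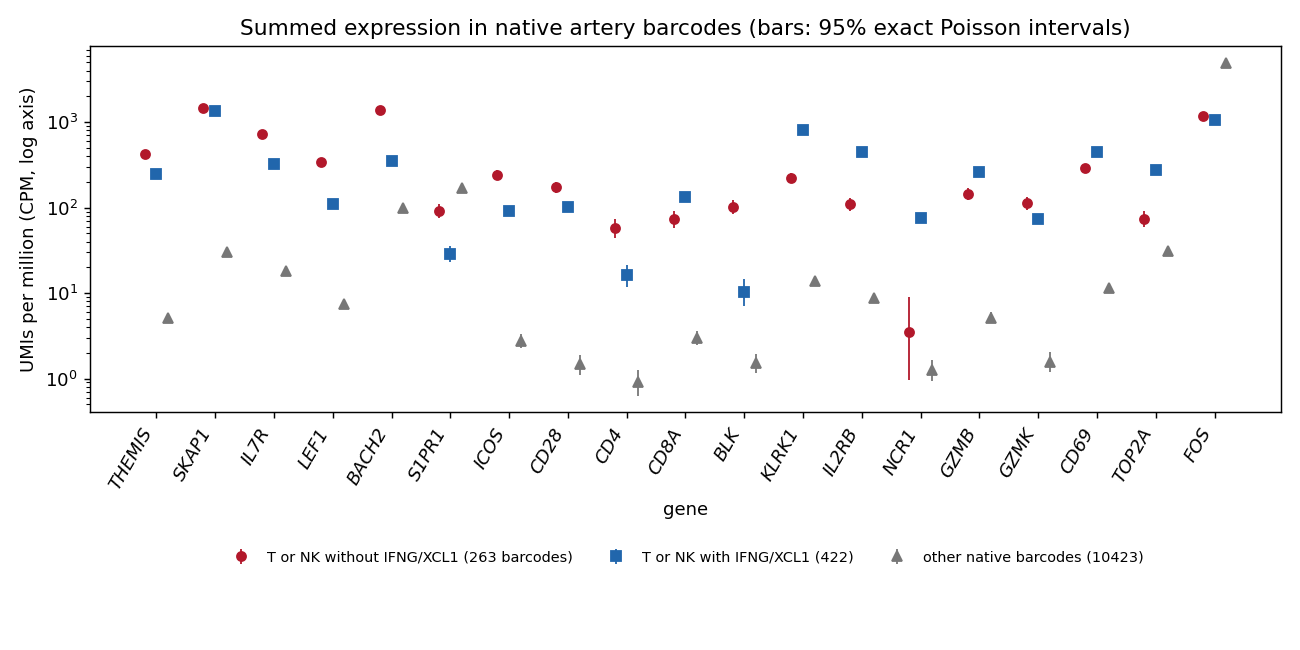
Summed expression of 19 genes in CPM on a log axis, for the 263 members (red circles), the 422 native T or NK barcodes with IFNG or XCL1 (blue squares) and the 10423 other native barcodes (grey triangles), with exact 95% Poisson intervals. IL7R, LEF1, BACH2, S1PR1, ICOS, CD4 and BLK lie higher in red than in blue, and KLRK1, IL2RB, NCR1, GZMB and TOP2A lie lower.

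Against the rest of the artery, the members carried most of the T cell programme and most genes of rest and memory. All 16 measured genes of T cell receptor signalling that the rule did not use were at least 2-fold higher in the members, with a median log2 ratio of 4.05 after 5 CPM were added to each value. Over all 16502 genes measured in this comparison the median was -0.10, with 7.91% of genes past 2-fold upward and 16.3% past 2-fold downward. The rule selected T cells in these same barcodes, so the count describes the choice. THEMIS was 83.3-fold higher (interval 70.5 to 98.8), and the adaptor SKAP1 stood at 1480 CPM in the members and 30.3 CPM in the other native barcodes. CD28, the costimulatory receptor, stood at 172 and 1.47 CPM.

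Of 21 genes of resting, naive and memory cells, 16 passed 2-fold upward in the members against the other native barcodes and 1, TXNIP, downward. The list's median log2 ratio was 3.08. IL7R was 40.1-fold higher (interval 36.2 to 44.5). LEF1 stood at 343 CPM in the members and 7.36 CPM in the other barcodes, LTB, a lymphotoxin subunit, at 554 and 15.0 CPM, and BACH2 at 1394 and 98.4 CPM. CCR7, a receptor for homing to lymph nodes, was low but present. It had 40 UMIs in 25 members, or 35.4 CPM, against 2.55 CPM in the other barcodes. KLF2 and S1PR1, which resting T cells share with endothelium, were no marks of the members on this scale, at 223 against 448 CPM and at 92.2 against 171 CPM.

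Other T cell genes ranked among those that differed most from the rest of the artery. The 12 highest by ratio, besides the rule's genes, were THEMIS, SKAP1, ICOS, IL7R, CD52, LEF1, LTB, CAMK4, SCML4, CD28, BCL11B and ABTB3. ICOS, an inducible costimulator, was 87.8-fold higher (interval 70.0 to 111), and BCL11B, a factor that keeps T cell identity, stood at 170 CPM in the members and 2.09 CPM elsewhere. The 12 lowest were DCN, COL1A1, NAALADL2, COL1A2, PID1, ANK2, COL3A1, FBN1, COL14A1, SEMA3C, IGFBP5 and LRMDA. Collagens and decorin lead that list, with DCN at 99.2 CPM in the members and 2891 CPM in the other native barcodes.

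The members were not only resting in their transcripts. The early activation and residency gene CD69 stood at 289 CPM in the members and 11.4 CPM in the other barcodes, and 11 of 14 genes of tissue residency were at least 2-fold higher, among them CXCR6, ITGAL, RUNX3 and ITGAE, with DUSP6 and ITGA1 lower. Of 14 cytotoxic and NK genes 9 were higher and NCAM1 was lower. GZMK and GZMB, which encode granzymes, stood at 113 and 144 CPM in the members, against 1.57 and 5.18 CPM. Immediate early genes lay the other way: 9 of 18 genes of that list were lower in the members and only DUSP2 was higher. FOS stood at 1168 CPM in the members and 4951 CPM in the other native barcodes, and EGR1 at 131 and 1094 CPM. These genes are induced by tissue dissociation as well as in life, and the part of dissociation was not tested.

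The nearest comparison, with the native T or NK barcodes that held IFNG or XCL1, showed few differences among T cell genes and more among resting and cytotoxic ones. Of the 11683 genes measured, 2.00% lay 2-fold or more higher in the members and 3.31% lay 2-fold or more lower. Their median log2 ratio was -0.04. Among T cell receptor signalling genes 1 of 16 was higher, UBASH3A, a regulator of that signal, at 51.4 CPM in the members and 21.4 CPM in the comparison barcodes. Depth differed between the groups and the absence of IFNG and XCL1 chose them, so these values are a description.

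Of the 21 resting, naive and memory genes 5 passed 2-fold upward in the members and 0 downward. The list's median log2 ratio was 0.42. BACH2, a repressor of effector genes and 1 of these 5, was 3.95-fold higher (interval 3.65 to 4.28), with 1 barcode holding 211 of its 1573 UMIs. S1PR1, the receptor for exit from tissue, was 3.22-fold higher (2.39 to 4.35), LEF1 3.15-fold (2.70 to 3.66) and IL7R 2.21-fold (2.01 to 2.43). CCR7 was 1.94-fold higher (1.25 to 2.98), and for TCF7 and CD27 the intervals of the ratio, 0.966 to 1.70 and 0.977 to 2.03, included no difference.

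The share of barcodes with a UMI at equal depth gave the same order for 3 of these genes. IL7R was found in 38.9% of members (interval 32.5 to 45.7%) and 17.8% of the comparison barcodes (14.2 to 22.0%), with 0.548% in endothelial barcodes. LEF1 was found in 20.8% (15.7 to 26.8%) and 8.79% (6.20 to 12.0%), and BACH2 in 36.7% (30.3 to 43.4%) and 19.6% (15.8 to 23.8%). BACH2 also appeared in 6.05% of endothelial barcodes, more than the 0.339% for LEF1. Unthinned, IL7R was present in 53.2% of members and 43.4% of the comparison barcodes.

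**Figure D2:**
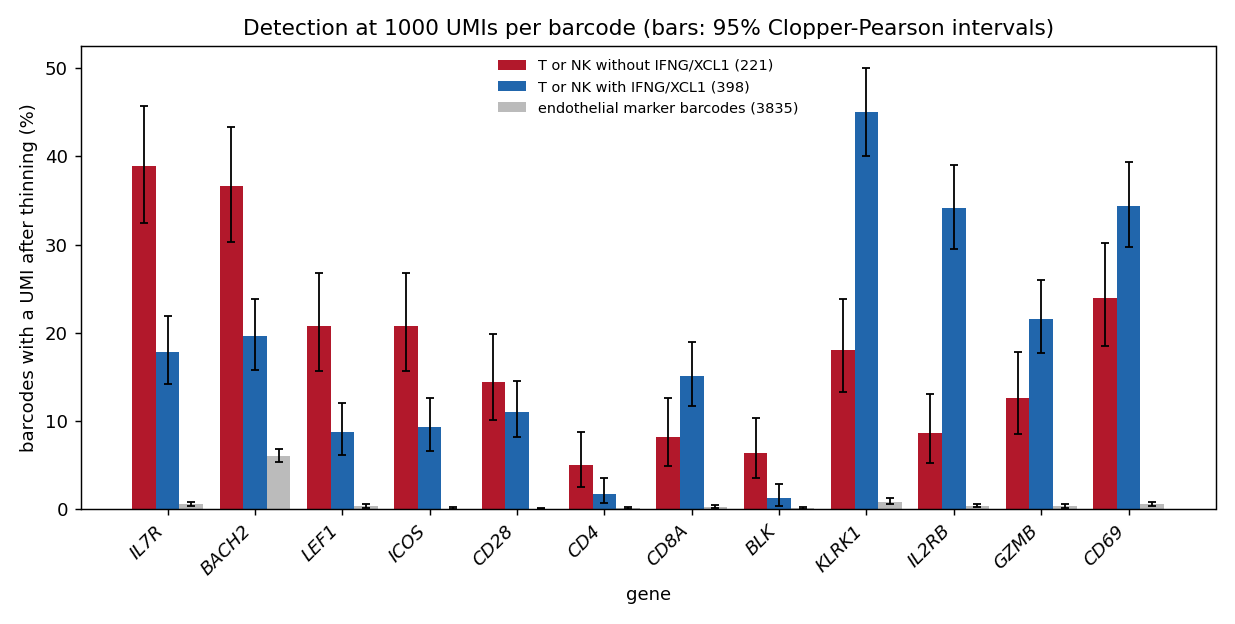
Percent of barcodes with at least 1 UMI of 12 genes after each barcode was thinned to 1000 UMIs, for 221 members (red), 398 native T or NK barcodes with IFNG or XCL1 (blue) and 3835 endothelial barcodes (grey), with 95% Clopper-Pearson intervals. With intervals that do not overlap, red bars exceed blue ones for IL7R, BACH2, LEF1, ICOS and BLK, and blue bars exceed red ones for KLRK1 and IL2RB. Intervals overlap for CD4 and CD28, higher in red, and for CD8A, GZMB and CD69, higher in blue. The grey bars show the share in endothelial barcodes, which reached 6.05% for BACH2.

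Cytotoxic and NK genes were the list that lay lowest in the members against this comparison group. Of 14 measured genes 0 passed 2-fold upward and 7 downward. The list's median log2 ratio was -1.17. The NK receptor gene NCR1 had 4 UMIs in the members, or 3.54 CPM, against 217 UMIs, or 74.9 CPM (21.1-fold lower, interval 8.13 to 78.2), and KLRF1 had 1 UMI against 246. IL2RB, an interleukin receptor chain of NK and effector T cells, was 4.11-fold lower (3.42 to 4.99) and KLRK1, which encodes the receptor NKG2D, 3.65-fold lower (3.20 to 4.17). EOMES, GZMA and CD244 made up the 7. The granzyme gene GZMB was 1.81-fold lower (1.52 to 2.15), and GZMK, known from memory CD8 cells, was 1.55-fold higher (1.24 to 1.94). The comparison group held the more barcodes without a CD3 transcript, 126 of 422 against 18 of 263 members, and the part of that make-up in these ratios was not tested.

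Activation genes moved little as a list, with 3 of 21 past 2-fold upward in the members, 1 downward and a median log2 ratio of -0.07. ICOS was 2.67-fold higher (interval 2.24 to 3.17), CTLA4, a checkpoint receptor, 8.81-fold (4.78 to 17.3, from 48 UMIs in 13 members), and IRF4 stood at 33.7 CPM in the members and 13.5 CPM in the comparison barcodes. TNFRSF18 lay the other way, at 23.0 and 92.1 CPM. CD40LG, at 87.7 and 49.7 CPM, did not pass 2-fold. FOXP3, which defines regulatory T cells, had 6 UMIs in 2 members, against 5 UMIs in 3 comparison barcodes. Of 10 gamma delta and innate-like genes BLK, SOX13 and MAF were higher and 0 were lower. Of 10 cell cycle genes 0 were higher and 5 were lower, with TOP2A at 74.4 CPM in the members and 277 CPM in the comparison barcodes, where 118 of its 803 UMIs came from 1 barcode. Of 14 tissue residency genes and 18 immediate early and heat shock genes 0 passed 2-fold in either direction, with medians of -0.33 and 0.06.

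**Figure D3:**
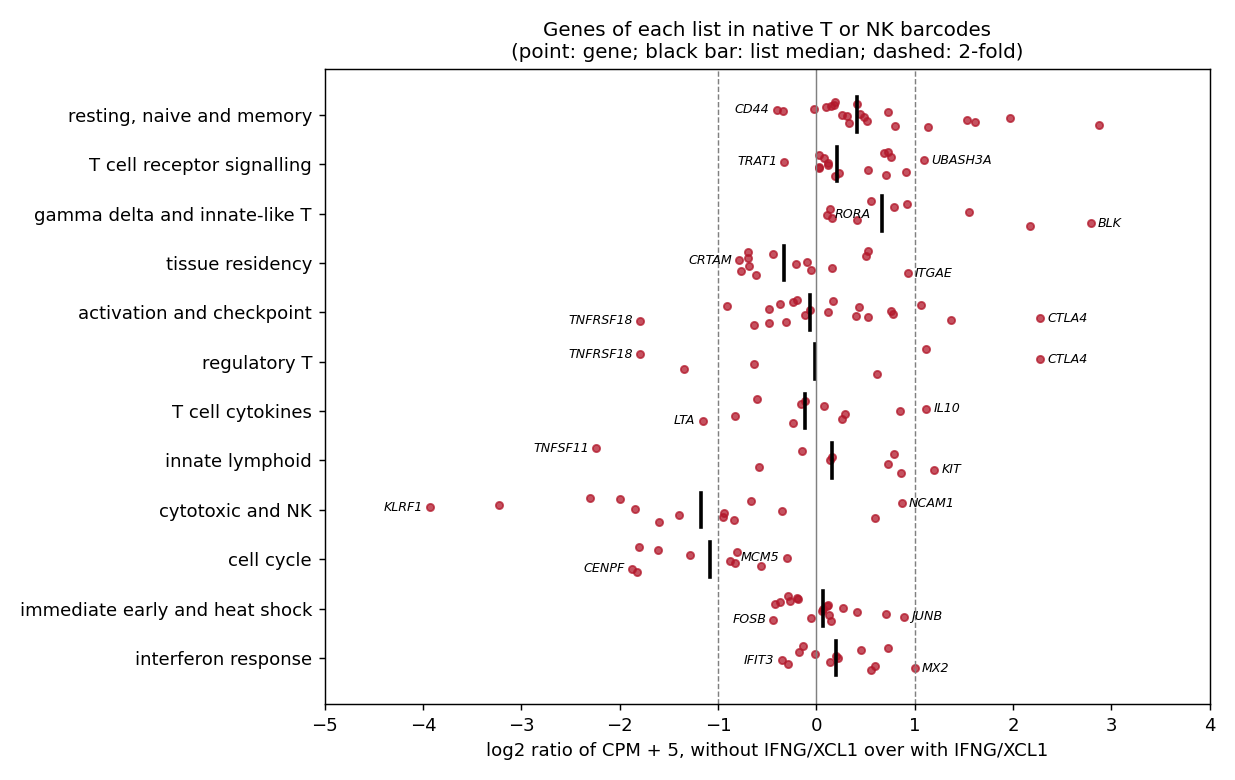
Log2 ratio of CPM + 5 in the 263 members over the 422 native T or NK barcodes with IFNG or XCL1, 1 point for each measured gene of 12 lists, with a black bar at each list's median and dashed lines at 2-fold. The cytotoxic and NK list has its median at -1.17 and the resting, naive and memory list at 0.42, and the highest and lowest gene of each list are named, except the highest of the resting, naive and memory list.

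The 12 genes that stood highest in the members by this ratio were CA8, RHEX, BLK, PLCL1, UST, PLXDC2, GHR, PCDH7, BACH2, RYR2, GAREM1 and P2RY8. CA8 had 77 UMIs in the members and 3 in the comparison barcodes, RHEX 117 and 19, and BLK, a kinase of the SRC family best known from B cells, 114 and 30. UST, PLXDC2, GHR, PCDH7 and RYR2 stood higher still in the other native barcodes, at 201 to 449 CPM, against 52.3 to 116 CPM in the members, and the part of free RNA in them was not tested. The 12 lowest were CCL1, KLRF1, SH2D1B, EPB41L3, PDE1C, NCR1, VAV3, MTSS1, PLEKHA5, IL12RB2, SKAP2 and DNAJC6. CCL1, a chemokine gene, had 0 UMIs in the members and 246 in the comparison barcodes, at least 31.9-fold lower against a floor of 3 UMIs over the group. IL12RB2, a receptor chain for interleukin 12, which drives interferon gamma production, was 8.15-fold lower (interval 6.52 to 10.3).

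Within the members, the 40 barcodes with CD4 and the 54 with CD8A differed in ways that did not use the coreceptors themselves. Their median depths were 5724.5 and 4927.5 UMIs. CD40LG, the helper signal to B cells and macrophages, was found in 21 of the 40 CD4 barcodes and 3 of the 54 CD8A barcodes, at 222 and 11.4 CPM (19.5-fold, interval 6.30 to 97.5). KLRK1 was found in 4 CD4 barcodes and 42 CD8A barcodes, at 47.8 and 596 CPM (12.5-fold lower in CD4 barcodes, interval 6.78 to 25.5). The perforin gene PRF1 was found in 2 and 23 of them and EOMES in 3 and 16.

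The 8 genes highest in the CD4 barcodes by ratio included CD40LG, PPARG, GHR, UST, IKZF2, PPFIBP1 and DNAJC6, and the 8 lowest were KLRK1, CRTAM, PRF1, RYR2, METTL15, HEATR9, KLF8 and EOMES. PPARG had 26 UMIs in 6 CD4 barcodes and 1 UMI in the CD8A barcodes. Genes of rest also divided the sets. Of 20 resting, naive and memory genes with at least 10 UMIs over both sets, 16 had the higher level in the CD4 barcodes and 4 the lower, KLF2, ETS1, SATB1 and CCR7. Over 6372 genes 47.9% had the higher and 52.1% the lower level there. IL7R was found in 31 of 40 CD4 barcodes and 21 of 54 CD8A barcodes, LEF1 in 28 and 14, and ICOS in 29 and 19. GZMB was found in 10 CD4 and 37 CD8A barcodes, and GZMK in 8 and 26. Of 9 cytotoxic and NK genes 1 had the higher level in the CD4 barcodes and 8 the lower. FOXP3 was found in 0 of either.

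Another kind of member carried BLK. This set was formed after its genes were seen to lead the members' list, so it is described without a test. It held 32 of the 263 members, with a median of 5873 UMIs, none with CD4 and 2 with CD8A. The other 231 members had a median of 4102 UMIs, so barcode counts of the BLK set and the others are not at equal depth. RHEX, known as a regulator of red cell formation in humans, was found in 32 of these 32 barcodes and in 1 of the 231 others. SOX13, a transcription factor known for gamma delta T cells in mice, was found in 21 and 1, and CA8 in 20 and 2. PIK3AP1, an adaptor to phosphoinositide kinase, was found in 25 and 19, and CALN1, STAC2, CADM1 and ZNF608 completed the 8 highest.

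The same 32 barcodes lacked genes that most T cells carry. CD3E and CD3G were found in all 32. CD2 was found in 0 of them and in 123 of the other 231, CD6, another surface receptor of T cells, in 0 and 80, LCK in 1 and 117, THEMIS in 2 and 104, and CD28 in 2 and 86. CD2 and LCK were among the marker genes of the rule, so these barcodes entered mainly through CD3. SH2D1A, GZMB, GZMK and FASLG had 0 UMIs, with SH2D1A at 265 CPM in the other members, at least 16.8-fold lower against a floor of 3 UMIs over the set. CD96, ALCAM and HEATR9 completed the 8 lowest.

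Genes of the receptor pathway and of rest went both ways in the BLK set. Of 16 receptor signalling genes 4 had the higher level in the BLK set and 12 the lower, and of 21 resting, naive and memory genes 8 had the higher and 13 the lower. Over 8824 genes 38.5% had the higher and 61.5% the lower level there. Among the lower were SKAP1, at 1047 CPM in the BLK set and 1568 CPM in the other members, LEF1, at 219.8 and 368 CPM, and LTB, at 230.3 and 620 CPM. Others were higher. ZAP70 was found in 23 of 32 barcodes, against 44 of 231, and CD247, the zeta chain, in 27 and 109. BACH2 stood at 3763 CPM in the BLK set and 911 CPM in the other members. IL7R was found in 25 of 32 and 115 of 231, at 884 and 686 CPM, and CCR7 in 0 and 25. MAF was found in 25 and 84 barcodes, IL23R, the receptor for interleukin 23, in 6 and 6, and CD69 in only 4 and 110. IL17A had 0 UMIs in all 263 members. The missing TRDC and CD163L1 symbols mean that a gamma delta receptor or a WC1 gene could not be looked up by name, and the set is called here by its leading genes.

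**Figure D4:**
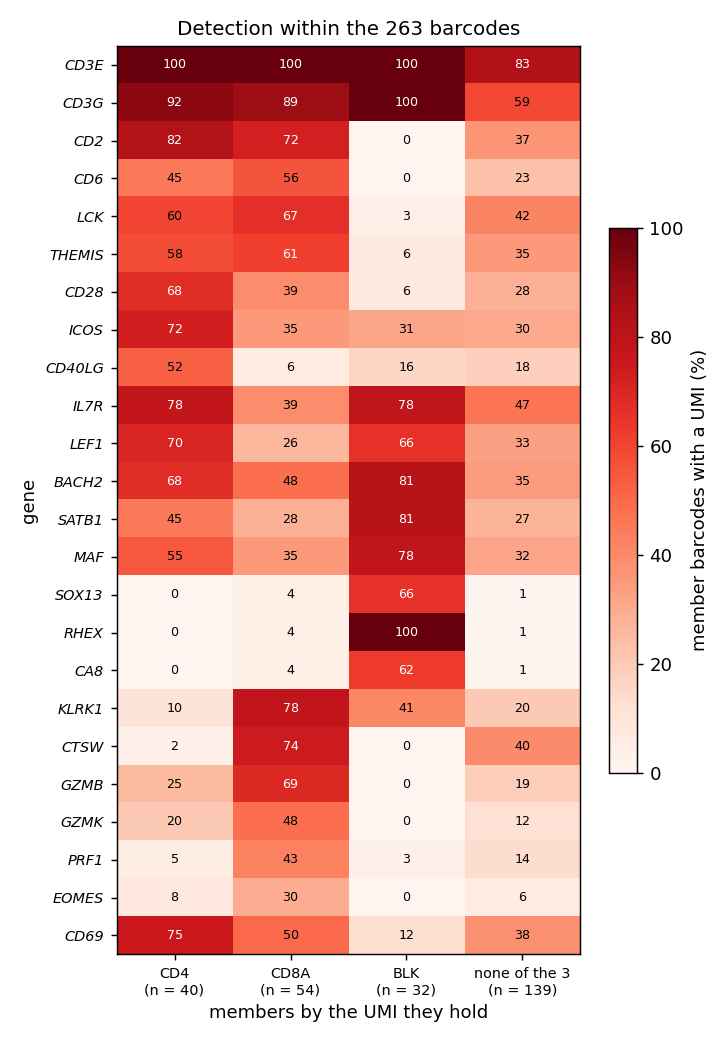
Percent of member barcodes with at least 1 UMI of 24 genes, by the UMI they hold: CD4 (40 barcodes), CD8A (54), BLK (32) and none of the 3 (139), with 2 barcodes in both the CD8A and the BLK column. RHEX fills the BLK column at 100% while CD2, CD6, CTSW, GZMB and GZMK stand at 0% there, CD40LG is highest in the CD4 column, and KLRK1 and GZMB are highest in the CD8A column.

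The remaining 139 members held none of CD4, CD8A and BLK. Their median depth was 3220 UMIs, lower than in the 3 named sets, and 34 of the 36 members with a marker sum of 2 were among them. IL7R was found in 65 of them, CD28 in 39 and GZMB in 26. Their sums, at 691 CPM for IL7R, 423 CPM for LEF1 and 322 CPM for CTSW, lay between those of the CD4 and CD8A sets. These stood at 887 and 486 CPM, 513 and 140 CPM, and 4.35 and 569 CPM for the same genes. Other genes lay outside both sets. BACH2 stood at 1151 CPM, against 1004 and 566 CPM in the CD4 and CD8A sets, and CCR7 at 62.6 CPM, against 17.4 and 26.6 CPM. Lower than in both were CD2, at 276 CPM against 491 and 349 CPM, and THEMIS, at 443 CPM against 543 and 558 CPM. A mixture of all kinds read at lower depth cannot be told apart from a kind of its own here.

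The graft library offered a second place to look for the same barcodes, since the rule had used native ones. Under the same steps the graft gave 40 T or NK barcodes without IFNG or XCL1, of 70 T or NK barcodes and 1088 passing barcodes. Of these 40, 3 carried smooth muscle markers and 63046 to 107368 UMIs each, and together held 52.9% of the UMIs and 99.6% of the COL1A1 UMIs. Leaving them out was decided after seeing the data. Without them 37 remained, with a median of 5639 UMIs, close to the members' 4457.

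BLK and RHEX were found together in the graft as well. BLK was found in 17 of the 37 graft barcodes, and 16 of these 17 held RHEX, against 0 of the 20 graft barcodes without BLK. SOX13 was found in 10 of 17 and 0 of 20, CD2 in 1 of 17 and 15 of 20, THEMIS in 0 and 12, CD28 in 1 and 14, and CD96 in 0 and 11. CD3E was found in 17 of 17 and 18 of 20, and BACH2 in 17 and 16. Where IFNG or XCL1 was present, BLK was found in 18 of 422 native barcodes, and only 2 of these 18 held RHEX. Of the same 18, LCK was found in 12, CD8A in 11, CTSW in 15 and CD2 in 2, so BLK alone did not mark the same pattern there. Both BLK and RHEX were thus found in 2 of these 422 native barcodes. In graft barcodes with IFNG or XCL1 both were found in 3 of 30 (10%, interval 2.11 to 26.5%), against 12.2% of the members. They were found together in 0 of 5289 endothelial barcodes. Of 32 native members and 16 graft barcodes with both genes, CD2 was found in 0 of either.

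As a share, BLK was found in 12.2% of members (interval 8.47 to 16.7%) and in 45.9% of the 37 graft barcodes (29.5 to 63.1%). At 1000 UMIs per barcode the shares were 6.33% (3.51 to 10.4%) in the members and 18.9% (7.96 to 35.2%) in the graft. CD4 was found in 40 of 263 members and in 9 of 37 graft barcodes, and CD8A in 54 of 263 and 3 of 37. With the 3 smooth muscle marker barcodes included, the graft counts were 9 of 40 for CD4, 4 of 40 for CD8A and 17 of 40 for BLK. In summed counts CD8A was 3.17-fold higher in the members (interval 1.30 to 10.0, against 5 UMIs in 37 graft barcodes) and CD4 was 1.83-fold lower (1.09 to 2.99). The CD4 direction turned with all 40 graft barcodes, to 57.6 CPM in the members and 49.7 CPM in the graft (1.16-fold higher, interval 0.710 to 1.95).

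Between members and the 37 graft barcodes the resting genes differed little. Of 9314 genes, 11.5% lay 2-fold or more higher in the members and 5.85% lay 2-fold or more lower. Their median log2 ratio was 0.03. Of 21 resting, naive and memory genes KLF2 and S1PR1 were higher and 1 was lower, and IL7R stood at 719 CPM in the members and 688 CPM in the graft (1.05-fold, interval 0.878 to 1.25). With the 3 smooth muscle marker barcodes included, 12.1% of 10154 genes were higher and 13.7% lower, and 8 of the 21 genes were higher and 0 lower.

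Activation gene counts changed with the 3 smooth muscle marker barcodes. With all 40 graft barcodes, 3 of 20 were past 2-fold higher in the members and 4 lower, with a median log2 ratio of 0.18. Without the 3, the median was -0.55, and of 19 measured 6 were at least 2-fold lower, TNFRSF4, TNFRSF18, IL2RA, TNFRSF9, IRF4 and NR4A3, and 2 were higher, MYC and NR4A1. IL2RA, the high-affinity interleukin 2 receptor chain, stood at 56.7 CPM in the members and 280 CPM in the 37 graft barcodes (4.93-fold lower, interval 3.42 to 7.12), and FOXP3 at 5.32 and 50.4 CPM, the graft value from 11 UMIs in 2 barcodes. TOP2A was 3.57-fold lower (2.51 to 5.05), with 53 of the graft's 58 UMIs in 1 barcode. Of 11 cytotoxic genes GZMB, CD244 and FASLG were higher in the members, with GZMB at 144 and 32.1 CPM (4.50-fold, interval 2.14 to 11.4), and 0 were lower. The 32 members and the 17 graft barcodes with BLK held 0 GZMB UMIs. Of the 18 native barcodes with BLK that held IFNG or XCL1, GZMB was found in 10. Among barcodes without BLK, GZMB stood at 174 CPM in the members and 60.6 CPM in the graft, and FASLG at 118 and 69.2 CPM. The part of the BLK share in these ratios was not tested. Among the 12 highest were PTGDS, ITIH4, DCN, GSN and RBMS3, which stood at 538 to 2891 CPM in the other native barcodes, and the part of free RNA in them was not tested. The 12 lowest were RNF212B, TNFRSF18, TCF4, UHRF2, POLK, KLHL15, IL2RA, CDK14, CENPF, TOP2A, CTSS and SAMHD1.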

How the data were processed

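The authors deposited 1 matrix of UMI counts per vessel, made with Cell Ranger 7.2.0 from 10x libraries, per the submitters' processing notes, with the genome build not given in the sources used here. Totals per library and depth per group stand in the results. Members and gene lists were chosen with earlier results of these data known. Counts were read with scipy 1.17.1 and pandas 2.3.3 in Python 3.11.15, summed over the barcodes of a group and divided by the group's total (CPM). A gene was measured in a comparison with at least 10 UMIs over both groups and called at a 2-fold difference after 5 CPM were added. Ratios have exact conditional binomial intervals, levels exact Poisson intervals and shares Clopper-Pearson intervals. They take UMIs as independent and cover counting error only. Summing weights deep barcodes more. Named genes are the 12 highest and 12 lowest by log2 ratio with at least 50 CPM and 30 UMIs in the higher group, leaving out rule, ribosomal, mitochondrial, haemoglobin and immunoglobulin genes, and 8 each way with 20 UMIs within the members. Other genes named come from the lists, and some were singled out after their values were seen. Free RNA was not removed. Doublets were left in: Scrublet (scanpy 1.11.5) marked 0 native and 3 graft barcodes, too few to be relied on, and an alternative without its highest scores was computed. The scripts were tested on simulated data. Some genes that the rule or the lists hold are not reported here by name.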

Additional observations from a re-analysis of the deposited data

How the results depend on the processing

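Of 214 summary values recomputed under other settings, 181 kept their call or moved by less than their interval or 1.5 times. The members' share of native barcodes, 2.37%, was 3.25% with at least 1000 UMIs per barcode, 2.04% with a marker sum of at least 3 and 1.90% with a dominance of 4 times. Thinned to 500 and to 2000 UMIs, CD4 was found in 1.14% and 9.90% of members, CD8A in 3.80% and 13.0%, and IFNG and XCL1 were both missing in 53.6% and 21.3% of the barcodes that hold them. That last share was 41.1% where a CD3 UMI was required. Against other native barcodes, 2 resting genes in place of 1 were lower with 1000 UMIs, a sum of 3, a dominance of 4, a CD3 UMI or 1 CPM added. Against the T or NK barcodes with IFNG or XCL1, 0 receptor signalling genes in place of 1 were higher with a CD3 UMI required or with equal weight per barcode, and 1 cytotoxic gene in place of 0 was higher with 1 CPM added. The graft comparison moved most. Main counts higher were 8 resting, 11 receptor signalling and 9 cytotoxic genes, and lower 0, 0 and 1. A dominance of 4 gave 2, 1 and 2 higher with 0 cytotoxic lower. Leaving out the 3 smooth muscle marker barcodes, chosen after seeing the data, gave 2, 1 and 3 higher, with 1 resting and 0 cytotoxic lower. Equal weight per barcode gave 3, 1 and 5 higher, with 4 resting, 1 receptor signalling and 0 cytotoxic lower, and gave IL7R a log2 ratio of -0.070 in place of 1.14. Those 3 barcodes held 52.9% of the graft UMIs. Of 390 gene values, 156 moved past their interval, 1 reversed and 233 did not move. Leaving out a replicate was not possible with 1 library per vessel. No paired analysis was possible because each group has 1 library and no test was made. CD4, CD8A and NCR1 rest on 4 to 82 UMIs in the members, which limits their precision.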

Other observations

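Of the cytokine list, LTB was found in 160 of 263 members, TNFSF10 in 91, TGFB1 in 82 and TNF in 73. Of 11 measured against the other native barcodes, LTB, TNF, IL4, TNFSF10 and CSF2 were at least 2-fold higher and IL10 was lower. Over all genes of this comparison 7.91% were higher and 16.3% lower. CSF2 rested on 10 UMIs, 9 of them in 1 barcode. TNF stood at 153 CPM in the members, 181 CPM in the T or NK barcodes with IFNG or XCL1 and 29.7 CPM elsewhere. IL4, the cytokine of type 2 help, had 13 UMIs in all and was found in 4 of 40 CD4 barcodes and 0 of 54 CD8A barcodes. IL5, IL17A and IL22 had 0 UMIs in the members.

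Interferon response genes lay low in the members against the rest of the artery: 8 of 15 were at least 2-fold lower and RSAD2 was higher. Over all 16502 genes of this comparison 16.3% were lower and 7.91% higher. IFI6 stood at 143 CPM in the members and 583 CPM in the other native barcodes. Against the T or NK barcodes with IFNG or XCL1 only MX2 of 13 passed 2-fold, at 13.3 and 4.14 CPM. Over all genes there 2.00% were higher in the members and 3.31% lower. BANK1, a scaffold best known from B cells, stood at 153 CPM in the members, 592 CPM in the T or NK barcodes with IFNG or XCL1 and 89.1 CPM elsewhere, while PAX5 had 0 UMIs in the first and the second of these groups.

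Genes without a symbol also differed between groups. ENSOARG00020037070 stood at 566 CPM in the members and 11.2 CPM in the other native barcodes. It was shared with the T or NK barcodes with IFNG or XCL1, at 427 CPM, and stood at 188 CPM in the graft T or NK barcodes without them. ENSOARG00020036134 stood at 138 CPM in the members, from 156 UMIs in 34 barcodes, and at 2.41 CPM in the T or NK barcodes with IFNG or XCL1. In the graft T or NK barcodes without IFNG or XCL1 this gene stood at 86.5 CPM.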
